A study of Mus musculus with 4 samples.

Results

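The 10 genes described here encode transcription factors and cofactors of the Schwann cell lineage, the glia of peripheral nerve, in hindlimb muscle of mice with and without superoxide dismutase 1. They are Sox10, Egr2, Nab1, Nab2, Pou3f1, Pou3f2, Yap1, Tead1, Zeb2 and Foxd3, taken by symbol from the 32285 genes counted, and each symbol had 1 row. Single-cell RNA-seq was run on tibialis anterior and gastrocnemius muscle of male mice aged 2 months, pooled from 4 mice per genotype. WT mice carried the S100GFP-tg transgene, in which the S100B promoter drives enhanced GFP, and Sod1KO mice carried the same transgene on a Sod1-/- background, so the reporter was shared by every group and no agent was given. Cells of each genotype were sorted by flow cytometry into a GFP+ and a GFP- fraction, which gave 4 groups of 1 library each.

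Schwann cells either wrap 1 axon in a myelin sheath (myelinating Schwann cells, mSC) or stay non-myelinating (nmSC), ensheathing small axons or capping the nerve terminal at the neuromuscular junction. SOX10 is needed throughout the lineage. Together with the POU-domain factors POU3F1 (Oct6) and POU3F2 (Brn2) it switches on Egr2 (Krox20), whose product, acting with the NAB cofactors, activates myelin genes. YAP1 is a coactivator of the Hippo pathway that binds DNA through TEAD1, ZEB2 represses inhibitors of myelination, and FOXD3 acts early, in the neural crest from which Schwann cells arise.

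On GRCm38.p6, Sox10 lies at chr15:79154913-79164490, Nab1 at chr1:52455849-52500712, Nab2 at chr10:127660918-127666703, Pou3f1 at chr4:124657646-124660655 and Pou3f2 at chr4:22482095-22488366. Yap1 lies at chr9:7931999-8004638, Tead1 at chr7:112679356-112906784, Zeb2 at chr2:44983512-45117442 and Foxd3 at chr4:99656299-99658671. Nab2 overlaps Stat6, Egr2 overlaps Gm32255, and Zeb2 overlaps Zeb2os and Mir5129. Counting was run with default Cell Ranger settings per the study's methods, which do not name strand, so reads of these 3 members are treated as uncertain where the genes overlap.

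The promoters of the members are shown because several of these factors are known to act on one another's genes. RefSeq promoter windows on GRCm38.p6, from 250 bases before to 50 bases after a start site, were listed for 7 of the 10 members, and not for Sox10, Pou3f1 and Tead1. Each window was searched on both strands for 6 strings: GCGTGGGCG (EGR), ATGCAAAT (the POU octamer), GGAATG (TEAD), ACAAAG (SOX), CACCTG (the E-box that ZEB factors bind) and TGTTTAC (forkhead). Egr2, at chr10:67534469-67542188 on the plus strand, held the octamer in 3 of its 5 windows, which overlap and share the same site, while 1.74% of all 32851 windows held it. The 250 bases before one of those starts, chr10:67537619-67537868, plus strand, 5′ to 3′, with the octamer in capitals, read as follows.
Egr2: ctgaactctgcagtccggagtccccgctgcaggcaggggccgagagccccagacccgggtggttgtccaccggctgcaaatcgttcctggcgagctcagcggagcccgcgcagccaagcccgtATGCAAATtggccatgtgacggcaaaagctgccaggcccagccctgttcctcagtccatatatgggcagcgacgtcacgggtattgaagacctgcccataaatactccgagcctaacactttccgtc

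The Nab1 window held 2 EGR matches, a string found in 0.61% of windows, and only 7 windows of all, or 0.021%, held 2 or more. The TEAD string, in 14.66% of windows, occurred before the listed starts of Nab1 and Yap1, 1 of 4 Zeb2 starts and an upstream Egr2 start. The same Zeb2 window also held the SOX string, present in 18.71% of windows. Of the 250 bases before the start, 231 for Nab1 and 180 for this Zeb2 window also occur in GENCODE transcripts of the same gene. The Nab1, Zeb2 and Egr2 sites lie within the gene spans given above. None of the 6 strings was in the windows of Nab2, Pou3f2 or Foxd3. The sites are given on the strand of the gene with 10 bases on each side and the match in capitals. A match is only a description of these letters.
Nab1 EGR, chr1:52500571-52500599, minus strand: gccccgcggcCGCCCACGCcgggatctgc
Nab1 EGR, chr1:52500539-52500567, minus strand: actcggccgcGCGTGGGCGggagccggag
Nab1 TEAD, chr1:52500640-52500665, minus strand: agctgccgtgGGAATGggccaccccc
Yap1 TEAD, chr9:8004722-8004747, minus strand: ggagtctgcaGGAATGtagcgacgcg
Zeb2 TEAD, chr2:45110419-45110444, minus strand: ccgccgtgtgCATTCCctcatacggt
Egr2 TEAD, chr10:67537429-67537454, plus strand: ttaattttccGGAATGgctcccaaac

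After filtering, 4557 WT GFP+, 5925 Sod1KO GFP+, 1638 WT GFP- and 5143 Sod1KO GFP- cells were kept, with between 1 and 13 barcodes shared by any pair of libraries. Cells were clustered without the 10 members, and classes were named from marker lists. The GFP+ fraction also held tenocyte-like, mesenchymal-like, smooth muscle-like, endothelial-like and macrophage-like cells, so GFP did not mark Schwann cells alone. GFP+ cells held 1075 WT and 656 Sod1KO mSC-like cells, with a median of 6237 and 6110 unique molecular identifiers (UMIs) per cell. They also held 380 WT and 884 Sod1KO nmSC-like cells, with medians of 12098.5 and 9542 UMIs. The nmSC-like class differed in make-up: cluster 11, led by Bche and Ajap1, was 80.0% of it in WT and 23.8% in Sod1KO, whereas cluster 9, led by Btc and Ngfr, was 9.21% in WT and 62.7% in Sod1KO. Sod1 itself stood at 91.0 CPM in WT GFP+ and 98.2 CPM in Sod1KO GFP+ cells. The reads are 3′ tags and the deleted part of Sod1 was not given in the sources used here, so Sod1 does not check the genotype, and directions below are those of the libraries labelled WT and Sod1KO. With 1 library of pooled mice per group there was no replicate and no test. Classes are ranked only where they had at least 50 cells in a library. Levels are UMIs summed over the cells of a class per 1000000 UMIs of that class (CPM), and bracketed 95% intervals cover counting error only.

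Among the named classes, Sox10, Pou3f1, Pou3f2 and Foxd3 were largely restricted to the Schwann-like ones. Unnamed clusters are left out of this ranking, and some held these genes, such as cluster 8, described below. Another was cluster 27, with Mki67 and Top2a among its leading genes, in 7 WT and 48 Sod1KO GFP+ cells. In Sod1KO it held 247 CPM of Sox10 and 214 CPM of Foxd3. Sox10, an SRY-related HMG-box factor, stood at 404 CPM (389–419) in WT and 364 CPM (347–382) in Sod1KO mSC-like cells. In nmSC-like cells it stood at 376 CPM (361–392) in WT and 313 CPM (303–324) in Sod1KO. The next class was endoneurial fibroblast-like cells, at 16.0 CPM in WT and 19.2 CPM in Sod1KO, and every other GFP+ class of at least 50 cells lay below that. When each cell was thinned to 1000 UMIs, the share of mSC-like cells with a Sox10 UMI was 34.0% in WT and 33.8% in Sod1KO, against 0.323% of WT endothelial-like cells, which should lack it.

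Foxd3, the forkhead factor of neural crest, was likewise found in both Schwann-like classes. It stood at 240.1 CPM in WT and 189 CPM in Sod1KO mSC-like cells, and at 195 and 202 CPM in nmSC-like cells of the same libraries. No other named GFP+ class of at least 50 cells exceeded 7.15 CPM. Pou3f1, the promyelinating POU factor, stood at 1589 CPM (1557–1621) in WT nmSC-like and 1125 CPM (1100.0–1149.6) in WT mSC-like cells. The Sod1KO levels were 1149.9 CPM (1129.8–1170.3) and 847 CPM (819.8–874), so the nmSC-like class was the higher one in both genotypes. Endoneurial fibroblast-like cells followed at 89.4 and 50.2 CPM. Pou3f2, its paralog, rested on few molecules: 109 and 79 UMIs in WT and Sod1KO mSC-like cells and 75 and 103 UMIs in nmSC-like cells. No other named GFP+ class held more than 2, while unnamed cluster 8 held 53 and 46 UMIs and cluster 27 held 3 and 22.

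**Figure D1:**
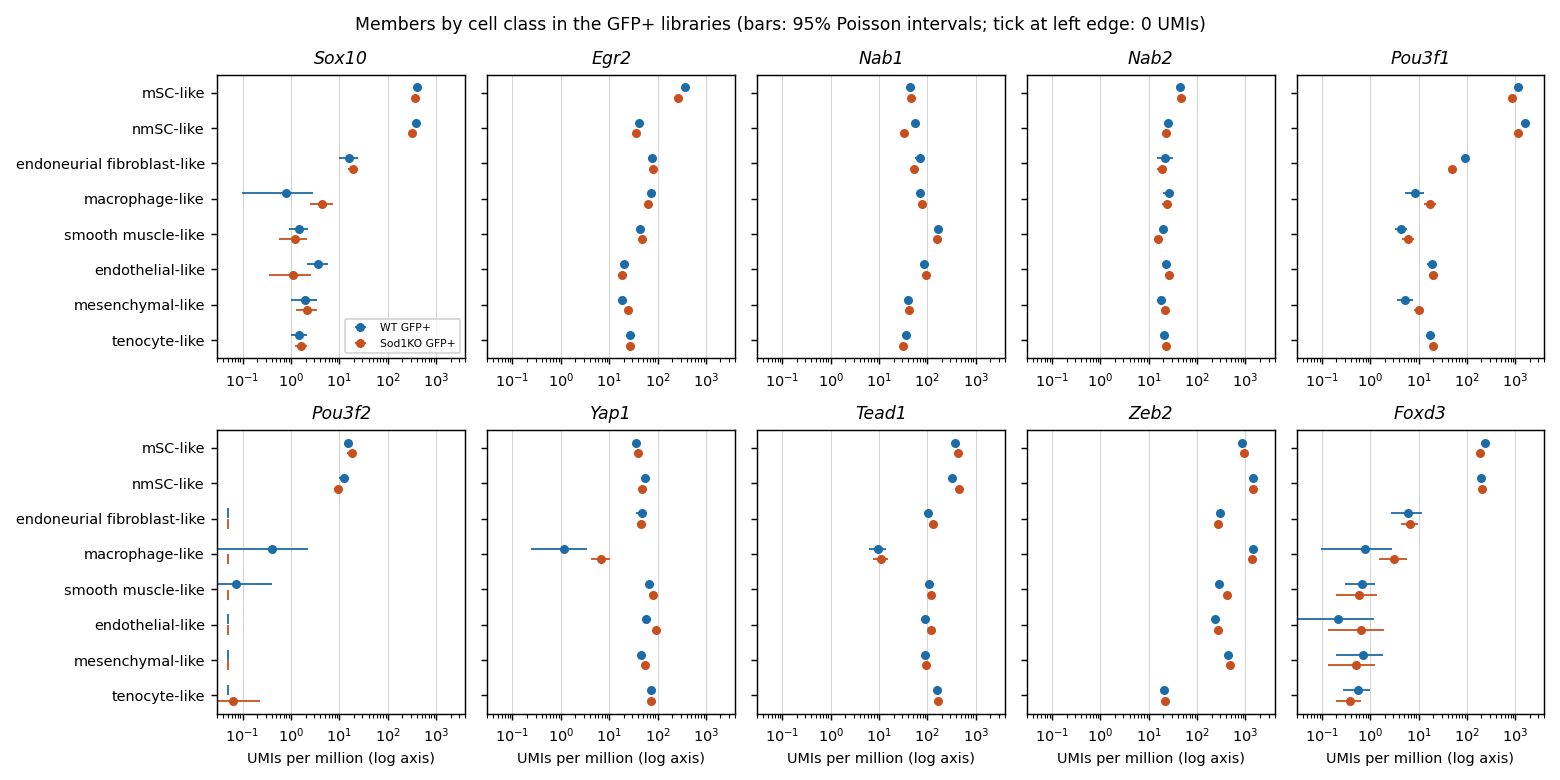
Level of each of the 10 genes (UMIs per 1000000, log axis) in the 8 GFP+ cell classes plotted for the WT and Sod1KO libraries, 1 library per genotype, with 95% Poisson intervals as bars and a tick at the left edge for 0 UMIs. Sox10, Pou3f1, Pou3f2 and Foxd3 are high in the mSC-like and nmSC-like classes and low in the other classes plotted, Egr2 is highest in mSC-like cells, and Zeb2, Tead1, Yap1 and Nab1 spread over several classes.

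The plot of levels by class also shows where the broader factors were found. Egr2, the zinc-finger activator of myelin genes, was highest in mSC-like cells, at 369 CPM (355–383) in WT and 269 CPM (254–285) in Sod1KO. It was next in endoneurial fibroblast-like cells (77.2 and 80.2 CPM) and macrophage-like cells (72.3 and 63.3 CPM). Smooth muscle-like cells held 44.0 and 47.0 CPM, and nmSC-like cells 42.2 CPM (37.1–47.7) in WT and 36.4 CPM (32.8–40.1) in Sod1KO. The WT nmSC-like level was thus not above that of smooth muscle-like cells.

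Zeb2, the repressor of inhibitors of myelination, was not restricted to the lineage, and its macrophage-like and nmSC-like levels were close. Macrophage-like cells stood at 1421 CPM in WT and 1391 CPM in Sod1KO, nmSC-like cells at 1409 CPM (1379–1440.1) and 1448 CPM (1425–1471), and mSC-like cells at 844 and 919.8 CPM. Tenocyte-like cells held only 20.6 and 21.4 CPM. Tead1, the DNA-binding partner of YAP1, was highest in Schwann-like cells, at 376 and 441 CPM in mSC-like and 322 and 445 CPM in nmSC-like cells. Tenocyte-like cells held 159.6 and 165 CPM, and macrophage-like cells 9.49 and 10.8 CPM. Yap1 did not peak in the Schwann-like classes, since tenocyte-like cells (72.8 and 71.9 CPM) were above nmSC-like cells (54.7 and 47.6 CPM) and mSC-like cells (36.1 and 39.3 CPM). The EGR cofactors diverged. Among classes with at least 50 cells in both GFP+ libraries, Nab1 was highest in smooth muscle-like cells (169 and 160.0 CPM) and Nab2 in mSC-like cells (44.1 and 46.2 CPM). Perineurial-like cells held 58.9 CPM (37.8–87.7) of Nab2 in 42 WT cells and 41.3 CPM (30.9–54.2) in 90 Sod1KO cells, intervals that overlap those of mSC-like cells.

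Between the Schwann-like classes, Egr2 was the member that separated myelinating from non-myelinating cells. Its level was 369 CPM in WT mSC-like and 42.2 CPM in WT nmSC-like cells, a log2 ratio of 3.13 (2.94 to 3.32). In Sod1KO the levels were 269 and 36.4 CPM, a log2 ratio of 2.89 (2.72 to 3.05). At 1000 UMIs per cell, the share of mSC-like cells with an Egr2 UMI was 29.7% (27.0–32.5) in WT and 23.0% (19.8–26.4) in Sod1KO, and that of nmSC-like cells was 4.49% (2.63–7.08) and 4.2% (2.97–5.74). In endothelial-like cells, taken as background at median depths of 11392 and 11496 UMIs, the share was 1.94% (0.714–4.16) in WT and 1.65% (0.538–3.81) in Sod1KO, intervals that overlap those of nmSC-like cells. Without thinning the shares were 77.0% and 70.6% of mSC-like and 35.8% and 26.2% of nmSC-like cells.

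All 10 members were measured, with at least 30 UMIs summed over the classes compared. A ratio of at least 2, the size used here to name a difference, was reached by 1 of 10 members in WT, where 31.4% of 12190 measured genes reached it, and by 2 of 10 in Sod1KO, where 29.0% of 12509 did. The second was Nab2, at log2 1.00 (0.73 to 1.28) in Sod1KO and 0.80 (0.51 to 1.09) in WT. Nab1 turned between the genotypes, from −0.38 (−0.61 to −0.15) in WT to 0.48 (0.22 to 0.73) in Sod1KO. The nmSC-like class was mostly cluster 11 in WT and cluster 9 in Sod1KO. Within Sod1KO, Nab1 stood at 27.3 CPM in cluster 9 and 46.8 CPM in cluster 11. It stood at 45.8 CPM in cluster 2, the main mSC-like cluster. The part of the make-up of the class in the Nab1 turn was not tested. Sox10 was slightly higher in mSC-like cells in both, by log2 0.10 (0.02 to 0.18) and 0.22 (0.13 to 0.30), but turned to −0.28 and −0.40 when the mixed cluster 8, described below, was counted as mSC-like.

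The other members leaned the other way or gave no shared direction. Zeb2 was lower in mSC-like cells, with log2 ratios of −0.74 (−0.79 to −0.69) in WT and −0.65 (−0.70 to −0.60) in Sod1KO. Pou3f1 was also lower, with −0.50 (−0.54 to −0.46) and −0.44 (−0.49 to −0.39), and so was Yap1, with −0.60 (−0.84 to −0.36) and −0.28 (−0.53 to −0.02). Tead1 stood at 0.22 (0.14 to 0.31) and −0.01 (−0.09 to 0.06), and Foxd3 at 0.30 (0.19 to 0.41) and −0.10 (−0.21 to 0.02), and both Sod1KO values became positive, at 0.13 and 0.04, under median-of-ratios scaling, which sets the median gene near 0. The median of all measured genes was −0.15 in WT and −0.23 in Sod1KO. Pou3f2 gave 0.28 (−0.16 to 0.72) in WT, where the interval includes 0, and 0.92 (0.47 to 1.35) in Sod1KO. Genes with long spans were lower in mSC-like cells at large: the median log2 ratio was −0.55 in WT for genes over 100 kb and −0.04 for genes under 20 kb. Zeb2 spans 133.93 kb and Tead1 227.43 kb, and the part of span in these ratios was not tested.

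**Figure D2:**
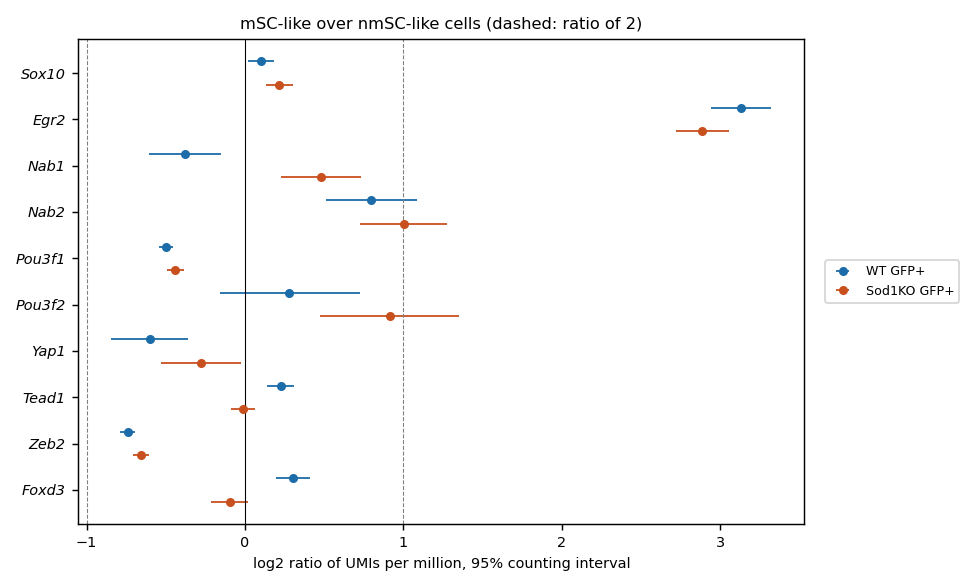
The log2 ratio of mSC-like over nmSC-like CPM for each gene in the WT and Sod1KO GFP+ libraries, with 95% counting intervals as bars and dashed lines at a ratio of 2. Egr2 lies near 3 in both genotypes, Nab2 near 1, Pou3f1, Yap1 and Zeb2 lie below 0, and Nab1 lies on opposite sides of 0 in WT and Sod1KO. The nmSC-like class differs in make-up between the 2 libraries.

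The plot of mSC-like over nmSC-like ratios sets Egr2 apart, and the other measured EGR genes gave smaller or opposite ratios. Of 10 measured paralogs of the members, 2 were higher and 5 lower in mSC-like cells in each genotype, with a median log2 ratio of −1.02 in WT and −1.10 in Sod1KO. Of all measured genes, 31.4% in WT and 29.0% in Sod1KO were higher or lower by 2-fold. Egr3, an EGR gene induced by activity in many cells, stood at 59.0 CPM in WT mSC-like and 152 CPM in WT nmSC-like cells, a log2 ratio of −1.37 (−1.54 to −1.20). Zeb1, the paralog of Zeb2, stood at 88.2 and 537 CPM, a ratio of −2.60 (−2.73 to −2.48), so both ZEB genes were lower in mSC-like cells. Wwtr1, which encodes the YAP1 paralog TAZ, stood at 229 and 440.5 CPM, a ratio of −0.94 (−1.03 to −0.85) in the direction of Yap1. Egr1, the founding EGR gene, was higher in mSC-like cells by 0.46 (0.42 to 0.49) in WT and 0.87 (0.83 to 0.92) in Sod1KO.

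Among Hippo pathway genes, 0 of 15 were higher by 2-fold and 4 lower in WT mSC-like cells, and 3 were lower in Sod1KO. Beside these counts, 31.4% of all genes in WT and 29.0% in Sod1KO were past 2-fold in either direction. The Hippo median was −0.44 in WT, where that of all genes was −0.15. Amotl1, whose product binds YAP1, was among the lower Hippo genes, at 33.5 CPM in WT mSC-like and 260.5 CPM in nmSC-like cells. The kinase genes Stk3 and Taok1 gave −0.40 and −0.71 in WT, and Vgll4, a TEAD cofactor, −0.44. The 7 measured YAP/TEAD targets split into 1 higher and 2 lower in WT and 1 higher and 3 lower in Sod1KO. Ccn1 (0.13), Amotl2 (0.11) and Lats2 (0.04) were near 0 in WT, and the receptor gene Axl stood at 8.2 and 27.1 CPM. Amotl2 and Lats2 are also in the Hippo list.

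Myelin genes that SOX10 and EGR2 activate were higher by 2-fold for 16 of 17 in both genotypes, but most are also markers that named the classes, so that count is not a result. SOX10 targets listed as outside myelin divided into 3 higher and 4 lower. That list includes Cnp, also in the myelin list and an mSC marker, and Gfra3, an nmSC marker. Both helped name the classes, so their directions are not results. Erbb3, the neuregulin receptor gene, stood at 145 CPM in WT mSC-like and 436 CPM in WT nmSC-like cells, and S100b, whose promoter drives the reporter, at 733 and 318 CPM. Of 4 measured genes that ZEB2 is known to repress in Schwann cells, Id4 was higher (2.19) and Ednrb lower (−2.17) in WT mSC-like cells, while Sox2 gave −0.29 and Id2 0.80. Neural crest factors gave 0 higher and 3 lower of 4 in both genotypes, namely Ets1, Sox5 and Sox6. Immature and repair Schwann cell regulators gave 1 higher and 2 lower of 7 in WT and 1 higher and 4 lower of 9 in Sod1KO. Sox2, Hey2, Id2 and Id4 are in both this list and the ZEB2 list. Ednrb is in the ZEB2 list and the list of SOX10 targets outside myelin, so counts of these lists overlap. These list counts stand beside 31.4% of all genes past 2-fold in WT and 29.0% in Sod1KO.

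Immediate early genes, which respond to tissue handling and to which Egr1 and Egr3 belong, gave 4 of 11 higher and 1 lower in mSC-like cells in both genotypes, with a median of 0.44 in WT and 0.29 in Sod1KO. The share of all genes past 2-fold in either direction was 31.4% in WT and 29.0% in Sod1KO. Fos stood at 6894 CPM in WT mSC-like and 2059.8 CPM in WT nmSC-like cells, and Junb at 1976 and 827 CPM. The part of cell handling in the Egr2 ratio was not tested.

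Within the classes, the members varied by cluster. The nmSC-like class was made of clusters 9, 11, 31 and 33, and Egr2 was low in the 2 large ones: 34.2 and 26.3 CPM in cluster 11, and 42.1 and 39.5 CPM in cluster 9, for WT and Sod1KO. Cluster 33, led by Scn7a and Gfra3, held 218 CPM (164–285) in 28 WT cells and 82.4 CPM (52.8–123) in 33 Sod1KO cells. Besides 12 of 16 nmSC markers, cluster 33 passed the limits for 5 of 14 mSC markers and 3 of 8 perineurial markers. Cluster 9 passed them for 3 mSC markers, and clusters 11 and 31 for 1 each. Cluster 33 is thus not free of myelin markers. It made up 7.37% of the WT nmSC-like cells and 21.7% of their Egr2 UMIs. Pou3f1 had the other order, with 1671 and 1729.8 CPM in cluster 11, 1226 and 1000.2 CPM in cluster 9, and 473 and 302 CPM in cluster 33.

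Clusters 9 and 11 were compared within the Sod1KO GFP+ library, where both were large. None of the 10 members differed by 2-fold or more, against 13.4% of all measured genes. Pou3f1 was lower in cluster 9, at a log2 ratio of −0.79 (−0.84 to −0.74), and Nab1 likewise at −0.78 (−1.10 to −0.45). Egr2 was higher in cluster 9 by 0.59 (0.22 to 0.97), Tead1 by 0.53 (0.43 to 0.64) and Zeb2 by 0.29 (0.23 to 0.34). Sox10 differed by −0.10 (−0.21 to 0.00). Among genes the members act on, 10 of 17 myelin genes were higher in cluster 9 and 0 lower, with a median log2 ratio of 1.61. Of 4 genes that ZEB2 represses, 3 were higher, with a median of 1.77, beside a higher Zeb2. These other genes took part in the clustering, so the counts are a description.

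Cluster 8 was left unnamed because it held all 14 myelin markers and 6 of 8 perineurial markers. Its Egr2 level of 178 CPM in WT and 108 CPM in Sod1KO lay between those of the mSC-like and nmSC-like classes. Sox10 (200.4 and 163 CPM), Pou3f1 (704 and 464 CPM), Foxd3 (130.3 and 86.8 CPM) and Zeb2 (434 and 566 CPM) were below both classes. The median depth of cluster 8 was 18218 UMIs in WT and 20882 in Sod1KO, above the 6255 and 6146 UMIs of cluster 2, and the part of doublets in it was not tested.

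**Figure D3:**
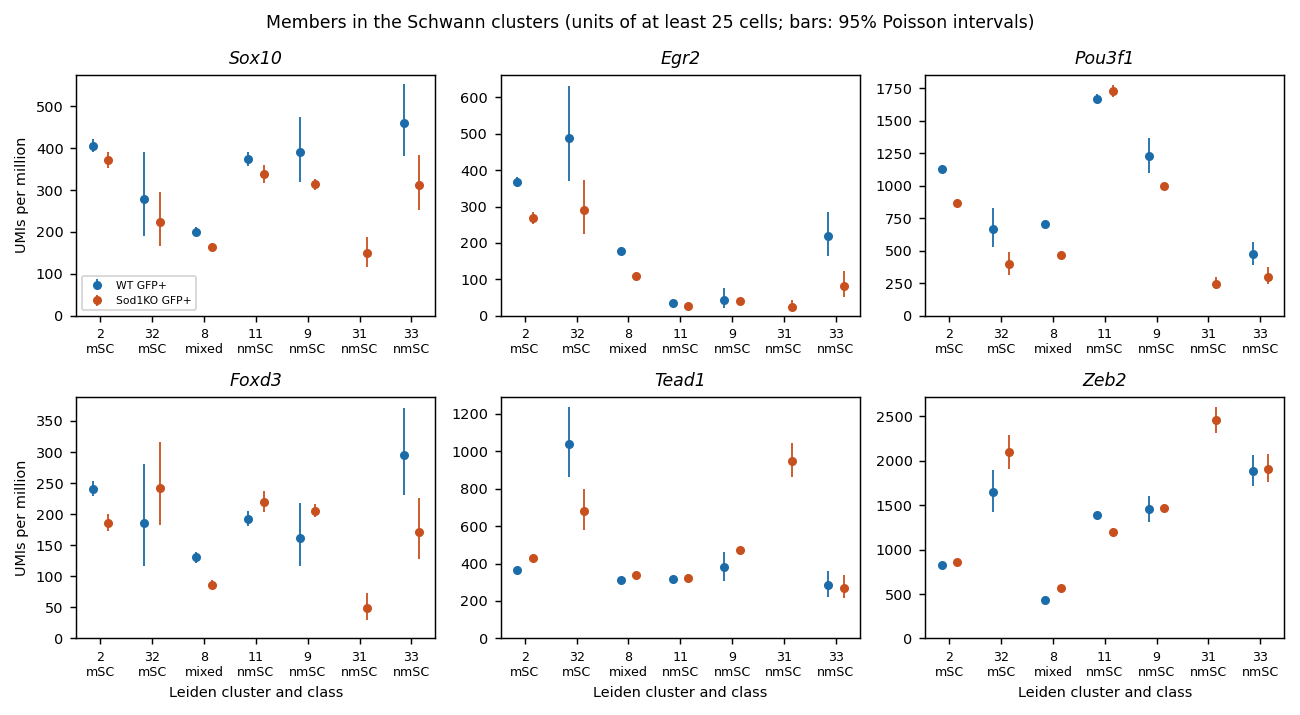
Level of Sox10, Egr2, Pou3f1, Foxd3, Tead1 and Zeb2 (UMIs per 1000000, linear axes) in the 7 Schwann clusters of the WT and Sod1KO GFP+ libraries, as points with 95% Poisson intervals, where cluster 8 is the mixed, unnamed one and WT cluster 31, with 13 cells, is not drawn. Egr2 is highest in clusters 2 and 32, Pou3f1 and Foxd3 are lowest in cluster 31, and Zeb2 and Tead1 are high in clusters 31 and 32.

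The plot of levels by cluster shows clusters 31 and 32 standing apart from the larger clusters of their classes. In Sod1KO, cluster 31 held 2457 CPM of Zeb2 and 948 CPM of Tead1, but 248 CPM of Pou3f1, 48.3 CPM of Foxd3 and 149 CPM of Sox10. Zeb2 and Tead1 have long spans and the 3 low genes short ones, and genes at large were ordered in the same way: the median log2 ratio of cluster 31 over cluster 9 was −1.28 for 4053 genes under 20 kb, 0.16 for 4529 genes between 20 and 100 kb, and 1.04 for 1631 genes over 100 kb. Of the members, Zeb2 (0.74), Tead1 (1.01) and Yap1 (1.04, spanning 72.64 kb) were above 0, and Sox10 (−1.07), Foxd3 (−2.09) and Pou3f1 (−2.01) below it. The other 4 had intervals that include 0, and among them Pou3f2, with a short span of 6.27 kb, stood above 0 at 0.57, Nab1 at 0.36, Nab2 at −0.42 and Egr2 at −0.71. Cluster 31 had a median of 4653 UMIs per cell in Sod1KO, against 9803 in cluster 9, and Malat1, a nuclear RNA, at 48257 against 23852 CPM. Cluster 32 over cluster 2 gave medians of −0.99, 0.11 and 0.96 in the same order. Cluster 9 over cluster 11 gave 0.06, 0.06 and 0.02, with no such slope. The part of span in the members' ratios between clusters was not tested.

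**Figure D4:**
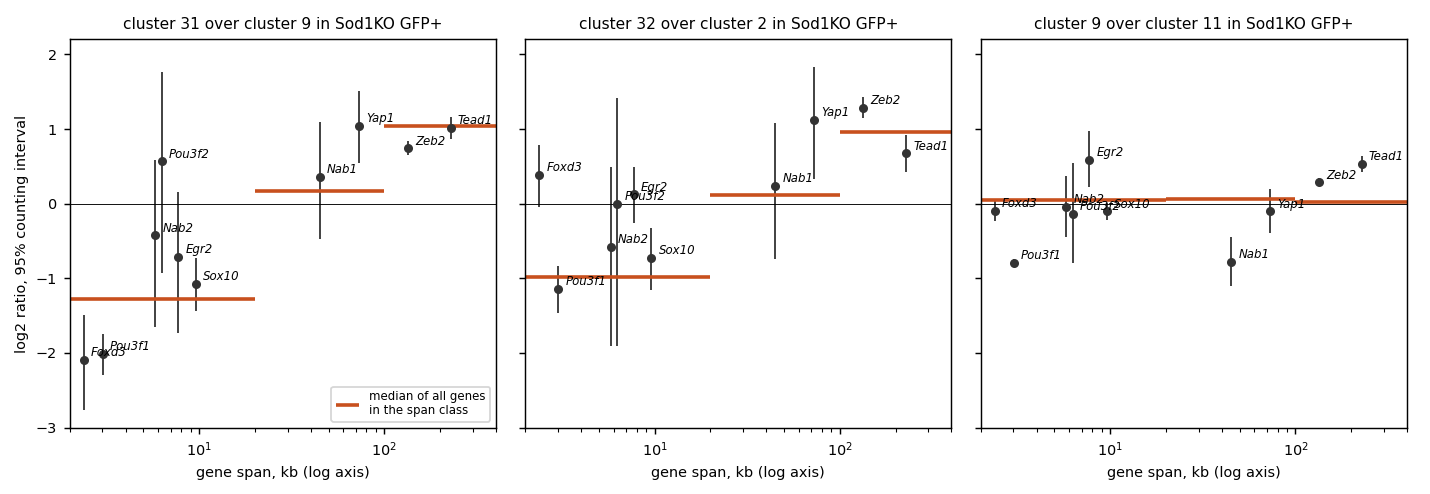
The log2 ratio between clusters in Sod1KO GFP+ cells against gene span (kb, log axis), with the median of all measured genes in each span class as lines and the members as named points. Members with long spans lie above 0 and members with short spans mostly below 0 where clusters 31 and 32 are compared with larger clusters, as the medians of all genes do, while the medians are flat for cluster 9 over cluster 11.

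The genotypes were compared within each Schwann-like class. In mSC-like cells, 0 of 10 members differed by 2-fold or more between the Sod1KO and WT libraries, against 2.91% of all measured genes. Egr2 gave the ratio farthest from 0, at 369 CPM in WT and 269 CPM in Sod1KO, a log2 ratio of −0.46 (−0.56 to −0.36). Lower in Sod1KO too were Pou3f1 at −0.41 (−0.47 to −0.35), Foxd3 at −0.35 (−0.47 to −0.23) and Sox10 at −0.15 (−0.24 to −0.06). Tead1 was higher by 0.23 (0.14 to 0.31) and Zeb2 by 0.12 (0.07 to 0.18). Nab1, Nab2, Pou3f2 and Yap1 had intervals that include 0. The 4 lower members all span under 20 kb and the 2 higher ones over 100 kb. The medians of all measured genes were −0.08 for spans under 20 kb and 0.14 for spans over 100 kb, and the part of span was not tested.

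Signs of RNA quality also moved with genotype. Malat1 was lower in Sod1KO in all 7 Schwann clusters, at 34957 CPM in WT and 23756 CPM in Sod1KO in cluster 2, 41933 and 26777 CPM in cluster 11, and 21053 and 14702 CPM in cluster 8. The median mitochondrial share was higher in Sod1KO in cluster 2 (5.02% in WT and 6.12% in Sod1KO), cluster 9 (2.87% and 3.88%) and cluster 11 (2.85% and 3.51%). That share was also higher in cluster 31 (4.84% and 6.32%) and cluster 32 (6.15% and 6.48%). In cluster 8 (3.55% and 3.27%) and cluster 33 (2.66% and 2.48%) it was lower. Their part in the genotype ratios was not tested.

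In nmSC-like cells, held mostly by cluster 11 in WT and cluster 9 in Sod1KO, 0 of 10 members reached 2-fold, against 9.95% of all measured genes. Nab1 stood at 56.1 CPM in WT and 33.1 CPM in Sod1KO, a log2 ratio of −0.76 (−0.98 to −0.54). Pou3f1 was lower in Sod1KO, at −0.47 (−0.51 to −0.43), and so was Sox10, at −0.26 (−0.34 to −0.19), while Tead1 was higher by 0.47 (0.39 to 0.54). Egr2 gave −0.21 (−0.45 to 0.02), an interval that includes 0. The Egr2 value became 0.04 without clusters 31 and 33, where clusters 9 and 11 still had unlike shares in WT and Sod1KO. Within cluster 11 alone Egr2 gave −0.38. Its level was also lower in Sod1KO in cluster 33 and, on 11 WT UMIs, in cluster 9. Within cluster 11 alone, with 304 WT and 210 Sod1KO cells, Pou3f1 gave 0.05 (0.00 to 0.10) and Tead1 0.05 (−0.07 to 0.16), so neither difference of the class was seen in its main WT cluster. Nab1 kept its direction there at −0.34 (−0.64 to −0.05), and Zeb2 was lower at −0.21 (−0.27 to −0.15). In cluster 11, 3.21% of all genes reached 2-fold.

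Cluster 8, with 310 WT and 317 Sod1KO cells and markers of both myelinating and perineurial cells, showed lower levels of 5 members in Sod1KO. The log2 ratio of Sod1KO over WT was −0.72 (−0.85 to −0.59) for Egr2, −0.63 (−0.86 to −0.41) for Nab2, −0.60 (−0.66 to −0.53) for Pou3f1, −0.59 (−0.74 to −0.43) for Foxd3 and −0.30 (−0.41 to −0.18) for Sox10, while Zeb2 was higher by 0.38 (0.31 to 0.45). None of the 10 reached 2-fold, against 8.39% of genes. The myelin genes they act on gave 0 higher and 4 lower of 17, with a median of −0.85. In cluster 2, the main mSC-like cluster, the ratios of Egr2 (−0.45), Pou3f1 (−0.38) and Foxd3 (−0.37) were close to those of the class, and 0 of 10 members reached 2-fold, against 2.62% of genes. Sox10 was below WT in cluster 2, cluster 8 and cluster 11, by between 0.13 and 0.30 on the log2 scale.

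**Figure D5:**
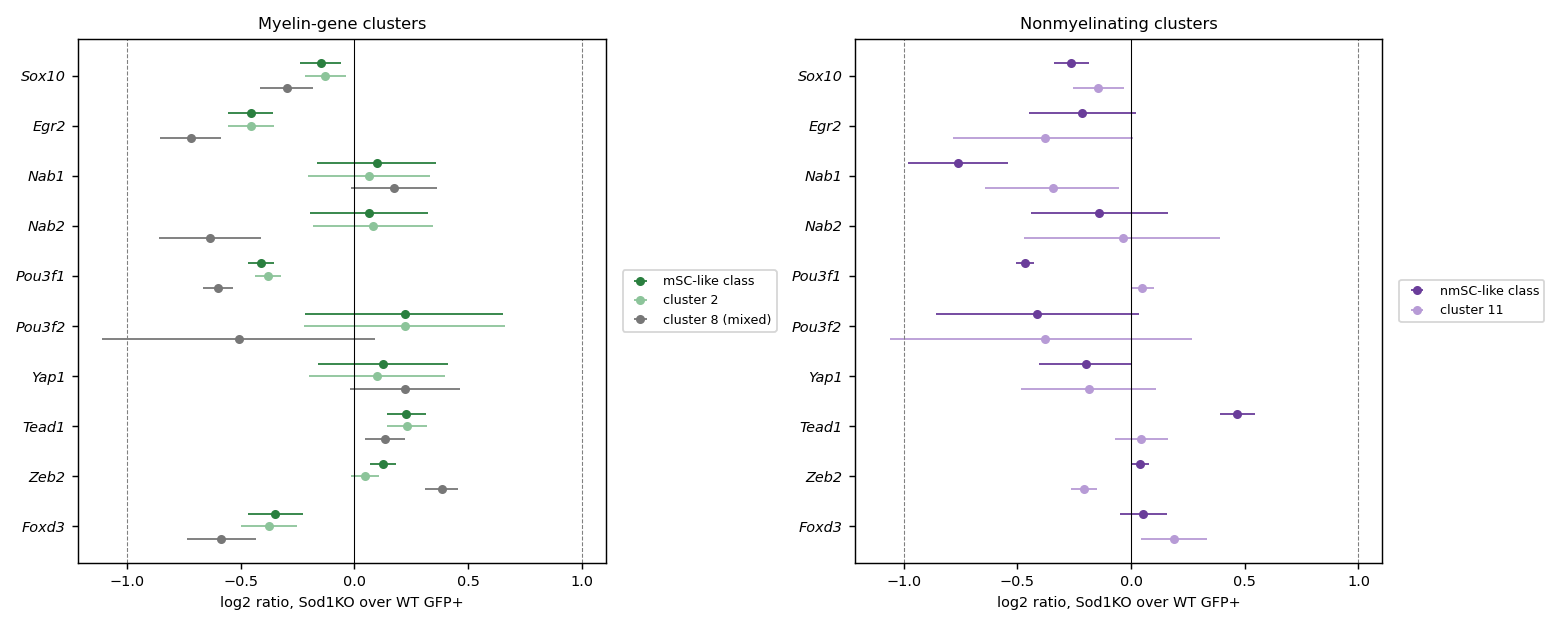
The log2 ratio of Sod1KO over WT CPM for each gene in mSC-like and nmSC-like GFP+ cells and in clusters 2, 8 and 11, with 95% counting intervals as bars, dashed lines at a ratio of 2 and 1 library per genotype. Egr2 and Sox10 lie below 0 in the mSC-like class, and Pou3f1 and Tead1 lie near 0 in cluster 11 but not in the nmSC-like class.

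Beside the plot of genotype ratios, the genes around these factors were counted in the same way. In mSC-like cells, 0 paralogs, Hippo genes, YAP/TEAD targets, myelin genes, other SOX10 targets, ZEB2-repressed genes and immediate early genes reached 2-fold. Of all measured genes, 2.91% did. Mbp, which encodes myelin basic protein, stood at 5738 CPM in WT and 4798 CPM in Sod1KO, a log2 ratio of −0.26 (−0.28 to −0.23). The 17 myelin genes had a median of −0.06, close to the −0.03 of all genes, beside the Egr2 ratio of −0.46. Runx2, a factor of the repair state, was higher at 10.7 CPM in Sod1KO and 2.83 CPM in WT, and so was Ets1, at 19.3 and 9.19 CPM. Runx2 was far higher in the nmSC-like cells of the same Sod1KO library, as given below. Ambient RNA was not removed from these counts, and its part in the Runx2 ratio was not tested. Immediate early genes had a median of −0.20, and Egr1 gave −0.29 (−0.33 to −0.25).

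In nmSC-like cells, where the make-up of the class differed between the libraries, 7 of 17 myelin genes were higher in Sod1KO and 0 lower, with a median of 0.72. Pmp22, a gene of compact myelin, was not among them and gave −0.81 (−0.85 to −0.76). Within cluster 11, only 1 of 11 measured myelin genes was higher, with a median of 0.00. Runx2 stood at 7.28 CPM in WT and 329.7 CPM in Sod1KO, and was 1 of 3 higher among 9 immature and repair regulators. Ednrb, the endothelin receptor gene that ZEB2 represses, stood at 78.4 and 238 CPM. Of 7 YAP/TEAD targets, 2 were higher and 0 lower, with Axl at 27.1 CPM in WT and 85.6 CPM in Sod1KO and a median over the list of −0.24. Paralogs gave 1 higher and 1 lower of 9, Hippo genes 0 higher and 1 lower of 15, neural crest factors 0 of 4, and immediate early genes 0 of 11, with Egr1 at −0.71 (−0.75 to −0.67). Of all measured genes, 9.95% were past 2-fold in either direction in the nmSC-like class and 3.21% within cluster 11.

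Outside the Schwann-like classes, Pou3f1 was 1 of 6 members measured in GFP+ macrophage-like cells and reached 2-fold, at 8.3 CPM in WT and 17.2 CPM in Sod1KO, where 5.73% of genes did. Sox10 had 2 UMIs in 2 of the 133 WT macrophage-like cells. In Sod1KO it had 14 UMIs in 3 of 212 such cells, 9 of them in 1 cell. The part of RNA from Schwann cells in the Pou3f1 ratio was not tested. Zeb2 was the 1 member measured in GFP+ erythroid-like cells, on 8 WT and 34 Sod1KO UMIs, where 10.1% of genes reached 2-fold. In GFP- pericyte-like cells Tead1 stood at 74.2 CPM in WT and 173 CPM in Sod1KO, 1 of 6 measured, where 6.64% of genes reached 2-fold. In GFP- erythroid-like cells Nab1, Yap1 and Zeb2, 3 of 4 measured members, differed by 2-fold, with at most 44 UMIs in either library, where 21.3% of genes did.

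In the other GFP+ classes no measured member reached 2-fold. This held for 9 members in endoneurial fibroblast-like cells (8.34% of all genes), 7 in endothelial-like cells (3.15%), 7 in mesenchymal-like cells (3.54%), 8 in smooth muscle-like cells (4.1%) and 8 in tenocyte-like cells (3.81%). It also held for 7 members in GFP- endothelial-like cells (9.68%).

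The genes most like each member were found by Pearson's r of log2(CPM + 10) over 34 profiles of class and library, among 16623 genes. This is a description, since profiles of 1 library share its depth and free RNA. Sox10 was most like Cmtm5 (r = 0.991) and Foxd3 (0.990). Foxd3 was most like Sox10, Plxnb3 and Igsf11 (each 0.990), and Pou3f1 like Sox10 (0.978), Cmtm5 (0.970) and Foxd3 (0.964), so these 3 members were near one another. Egr2 was most like Sec11c (0.872), Sema4b (0.865) and Fam234a (0.861). Pou3f2 was most like Gm13403 (0.991), Gm32633 (0.987) and Gm42788 (0.986).

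Tead1 was most like Senp6 (r = 0.929), Tcaf1 (0.895) and Pkia (0.889), and Yap1 like Nckap1 (0.895), Rbfox2 (0.882) and Zfp503 (0.868). Nab1 was most like Gucy1a1 (0.905), 1700016P03Rik (0.904) and Rock1 (0.904). Zeb2 was most like Dock10 (0.841), Ppp1r15b (0.766) and Satb1 (0.762). Nab2 was nearest to Fdxacb1 (0.755), Pogk (0.753) and Fam199x (0.743).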

How the data were processed

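Male mice aged 2 months gave GFP+ and GFP- sorted hindlimb muscle cells for 3′ single-cell RNA-seq, with 4 mice pooled and 1 library per group. The authors deposited filtered gene-by-cell UMI counts, not normalized. The submitters' processing notes name Cell Ranger 7.1.0 and mm10; the study's methods name other versions and a count step with default parameters, without naming the handling of strand or intronic reads. Later steps of the study, such as removal of ambient RNA, are not in these counts. Cells with over 200 genes and under 10% mitochondrial UMIs were kept, and simulated-doublet scores removed 0.8% per 1000 barcodes (27 to 366 cells). Clustering used 2000 variable genes without the members, 30 components, 20 neighbours and Leiden resolution 1.0 (Python 3.11.15, leidenalg 0.10.2, scikit-learn 1.9.0). A cluster needed 3 markers over 20 CPM and over 2 times the mean of the others. These naming limits were chosen once clusters had been inspected, and the members and lists were chosen with earlier results of these data known. Ratios are log2 of summed CPM with exact conditional binomial intervals, Poisson intervals stand on levels and Clopper-Pearson intervals on shares, and 2-fold names a difference. The ratio calculation was checked on simulated counts, and the other steps were not checked in this way. Named genes are the members, the 4 genes of each list with the most UMIs in Schwann-like cells, and the 3 genes most like a member; others were named after their values were seen, and some named by this rule are not reported here. Alternatives changed the scaling, cell filter, doublets, resolution, class rule, depth, ambient RNA, floor and call, and leaving out small clusters was added after seeing the data. Sequences and loci come from RefSeq, GRCm38.p6. Deposited barcodes numbered 5498, 7267, 2052 and 6598 (WT GFP+, Sod1KO GFP+, WT GFP-, Sod1KO GFP-), with median depths from 6152.5 to 13825.5 UMIs.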

Additional observations from a re-analysis of the deposited data

Results flagged for a closer look

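Nab1 was lower in Sod1KO in nmSC-like cells, with a Sod1KO over WT log2 ratio of −0.759. In mSC-like cells its ratio of 0.098 had the opposite sign, but its interval includes 0. Foxd3 was lower in mSC-like cells, at −0.347, and gave 0.053 in nmSC-like cells, where the interval includes 0. With 1 library per group these differences between the classes were not tested, and the nmSC-like class was held mostly by cluster 11 in WT and cluster 9 in Sod1KO.

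Sox10 was found in the GFP- libraries, which the comparisons of Schwann-like classes did not use. The 4 Schwann-like cells of the WT GFP- library held 13 Sox10 UMIs, or 210.9 CPM (112–361), against 1.05 CPM in the other named cells of that library. Of the 13 UMIs, 8 were in 1 cell. The 10 Schwann-like cells of the Sod1KO GFP- library held 32 Sox10 UMIs, or 301.5 CPM (206–426), against 0.292 CPM in the other named cells. Of the 32 UMIs, 14 were in 1 mSC-like cell and 7 in 1 nmSC-like cell. The intervals cover counting error and not this spread between cells. The difference between Schwann-like and other cells was not tested.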

How the results depend on the processing

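Of 40 member ratios (10 members in 4 comparisons), 25 kept their sign under every setting in which they could be computed, and 386 of 496 values under alternatives lay within the counting interval of the reported one. The setting that put a count of 0 at 1 UMI could change none of the 40 ratios, since no member had 0 UMIs in the classes compared. Its values are counted among the 386 and the 496, so that part of the count was fixed in advance. The number of members called between mSC-like and nmSC-like cells in both libraries was 1 and became 2 when clusters with at least 50% of the mSC markers were counted as mSC-like, with Zeb2 joining at −1.11 in WT and −1.05 in Sod1KO. It became 3 with a ratio of 1.5 as the call, and stayed at 1 under the others. Between genotypes, the count in mSC-like cells was 0 under every setting. In nmSC-like cells it was 0, became 1 with a ratio of 1.5, and became 2 with cells thinned to 1000 UMIs, where Nab1 gave −1.03 and Nab2 1.48. The Egr2 ratio between the classes ranged from 2.74 to 3.41 in WT and from 2.21 to 3.03 in Sod1KO, and its genotype ratio in mSC-like cells from −0.78 to −0.43. In nmSC-like cells the genotype ratio of Pou3f1 ranged from −0.63 to 0.05 and that of Tead1 from 0.05 to 0.53, with both values nearest 0 in cluster 11 alone. The causes of these changes were not tested. Depth limits Pou3f2 and the small clusters most. No paired analysis was possible because each group is 1 library.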
